A study of Arabidopsis thaliana with 3 samples.

Results

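Membrane transporters move sugars, nitrogen compounds, metals, water, anions and defence metabolites across the plasma membrane, the vacuolar membrane and the envelopes of organelles. ATP-binding cassette (ABC) transporters are pumps driven by ATP hydrolysis and carry auxin, abscisic acid, other hormones and specialised metabolites. SWEET proteins are uniporters for sugars, aquaporins are water channels, MATE proteins exchange organic compounds for protons, and most other families named here are secondary carriers.

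The transporters were taken from the table of genes that differed between *dss1(I)* and WT seedlings of *Arabidopsis thaliana*. A gene was included when its description held transporter, aquaporin, antiporter, symporter, permease, nodulin MtN21, WAT1, detoxification, H+-ATPase or potassium channel, and left out when it held auxin, calcium, calmodulin, cyclic nucleotide-gated or mitochondri. These words found 69 of the 2762 genes of the table. The selection also asked for an empty transcription factor column, but that column holds protein domain names for 1005 genes, and 51 of the 69 transporters have a domain name there. All 69 were therefore described, and values for the 18 with an empty column are given separately. This decision was made after the values had been seen.

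The *dss1(I)* seedlings carried a homozygous CRISPR/Cas9 allele with a large indel, dss1(I)del25, in the gene of a small intrinsically disordered protein of the proteasome and of DNA repair. Their label calls the line a knockdown, and WT was Columbia-0. Both were grown for 14 days on Murashige and Skoog agar with 1% sucrose and then for 3 days on agar with 10 mM H2O2. RNA of several independent experiments was combined into 1 library per genotype, so no difference below has a replicate check, and no seedlings without H2O2 and no *dss1(V)* library were analysed here.

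Library totals recovered from the FPKM values were 11033843 reads for *dss1(I)* and 9394592 for WT. The targeted gene *AtDSS1(I)* had 233 reads in *dss1(I)*, against 807 in WT, and its paralog *AtDSS1(V)* had 21 in *dss1(I)*, against 73 in WT. How reads of these similar genes were divided between them was not tested. Both fall in the range of 813 to 1084 bp, where 8.41% of other genes of the table were higher in *dss1(I)*. Chlorophyll a-b binding and photosystem genes, the shoot markers, were lower in *dss1(I)* in 4 of 4 cases, 3 of them plastid genes of 114 to 246 bp, with summed scaled counts of 363 in *dss1(I)* against 870 in WT. Only 15.1% of other genes of such lengths were higher, so 0 of 4 is near the background. Extensins, cell wall proteins, were higher in 18 of the 19 that passed the minimum, beside 60.7% of other genes of their lengths. Their sums were 22522 in *dss1(I)* against 6537 in WT, with *ATEXT4* at 10042 in *dss1(I)* against 3039 in WT. *PEX3* and *PEX4* of this list are described as pollen-specific, so the list is no measure of root hairs. Of 2 genes described with the word root, 1 was higher and 1 lower, with sums of 75.1 in *dss1(I)* against 139 in WT. The part of these markers in the transporter values was not tested. In whole seedlings, fewer cells of a type and less RNA per cell cannot be told apart.

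Of the sugar carriers found by the words above, 8 of the 9 that passed a minimum of 10 scaled counts were lower in *dss1(I)*, while 37.1% of other genes of their lengths were higher. With *STP1* and *STP14*, which the words missed, 8 of 11 were lower. The 250 bases before the annotated start of the 4 *SWEET* genes are printed here, 5′ to 3′ on the gene's own strand, because 3 of these genes were lower and 1 was higher in *dss1(I)*. Capitals mark ACGTG on either strand, the core of the abscisic acid response element, which also lies within the G-box CACGTG. The windows overlap no annotated gene and were read from the RefSeq assembly TAIR10.1.
SWEET13, lower in *dss1(I)*, chr5:20667313-20667562, minus strand: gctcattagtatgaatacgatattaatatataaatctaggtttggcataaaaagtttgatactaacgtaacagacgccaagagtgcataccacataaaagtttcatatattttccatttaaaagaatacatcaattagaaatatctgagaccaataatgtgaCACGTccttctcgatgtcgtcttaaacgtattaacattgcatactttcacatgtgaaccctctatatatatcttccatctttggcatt
SWEET15, lower in *dss1(I)*, chr5:4183355-4183604, minus strand: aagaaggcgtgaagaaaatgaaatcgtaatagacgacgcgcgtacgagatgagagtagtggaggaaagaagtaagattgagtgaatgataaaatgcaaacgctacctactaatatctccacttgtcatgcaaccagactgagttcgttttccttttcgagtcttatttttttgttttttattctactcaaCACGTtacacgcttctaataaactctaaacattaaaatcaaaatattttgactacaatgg
SWEET4, lower in *dss1(I)*, chr3:10409978-10410227, minus strand: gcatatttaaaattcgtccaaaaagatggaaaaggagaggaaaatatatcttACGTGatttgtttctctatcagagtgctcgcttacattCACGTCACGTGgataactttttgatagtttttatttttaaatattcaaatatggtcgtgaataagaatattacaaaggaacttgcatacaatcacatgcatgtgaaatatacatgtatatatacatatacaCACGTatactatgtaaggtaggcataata
SWEET16, higher in *dss1(I)*, chr3:5686545-5686794, minus strand: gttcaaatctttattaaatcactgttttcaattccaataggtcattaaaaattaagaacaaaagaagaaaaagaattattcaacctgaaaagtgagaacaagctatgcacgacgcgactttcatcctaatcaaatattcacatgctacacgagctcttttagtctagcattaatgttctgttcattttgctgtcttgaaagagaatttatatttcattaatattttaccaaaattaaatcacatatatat

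The core stood in the windows of the 3 *SWEET* genes with lower values and not in that of *SWEET16*. Among the 10 sugar carriers found by the words it was in 6 windows, which belonged to 6 of the 8 with lower and 0 of the 2 with higher values. The other 3 windows with the core were those of *SUGTL5*, *PLT3* and *AT5G55950*. Besides *SWEET16*, the only carrier with a higher value here was *AT3G20460*, which was under the minimum. The windows of *STP1* and *STP14*, both higher, were not looked at as sugar carriers. The same 250 bases held the core in 22.9% of 27443 protein-coding genes, and in 26% of the genes of the table. It was in 37.1% of the 35 transporters with lower values and in 11.8% of the 34 with higher values, against 29.5% and 22.4% of all table genes with lower and higher values. The W-box core, searched as TTGACC on both strands, was in 0 of the 10 sugar windows, in 17.4% of all transporters and in 12.2% of protein-coding genes. The motifs were chosen after the values had been seen, and a match describes letters only.

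Of the 69 transporters, 62 reached a scaled count of 10 in 1 library or both. A scaled count is a read count brought to a common library size. Of these 62, 31 were higher in *dss1(I)* by a log2 ratio of at least 1 and 31 were lower by as much. Over the whole table of 2620 genes passing the minimum, 48.1% were higher and 51% lower by that size. The table holds only genes its authors called at about 2-fold, so the count describes direction and not how many transporters responded. The smallest ratio in size among the 62 was 1.00, and the median of -0.01 falls in the gap between the directions, beside -1.02 over all genes of the table.

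Counts in each direction were uneven across the groups. The 18 transporters with an empty domain column had 6 higher and 12 lower values, with a median log2 ratio of -1.16. Of the 51 with a domain name, 44 passed the minimum, with 25 higher, 19 lower and a median of 1.05. The ABC class alone held 15 of the 31 higher genes, and the other classes together had 16 higher and 29 lower. For each gene an exact 95% interval was taken from its 2 read counts, without the pseudocount, and covers counting error only. It excluded 0 for all 69 genes, but all had been called from these same 2 libraries, so this follows largely from the selection. It lay wholly beyond 1 in size for 21, of which 7 were ABC genes. That share was not computed over all genes of the table, so these counts mark no trait of transporters or of ABC genes.

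Gene length went with direction throughout the table, so the counts of the groups are given beside the share of other genes of similar length. In 8 groups of equal size by length, 11.5% of the shortest other genes (66 to 813 bp) and 99.7% of the longest (4144 to 16614 bp) were higher in *dss1(I)*. Transporters were higher in 50% of cases, against 59.9% among other genes of the same length groups, a difference of -9.87 percentage points. Over the whole table, whatever the length, 48.5% were higher. Without the ABC class the shares were 35.6% of transporters and 49.6% of other genes. The transporters with an empty domain column were higher in 33.3%, against 39.1% of other genes.

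**Figure D1:**
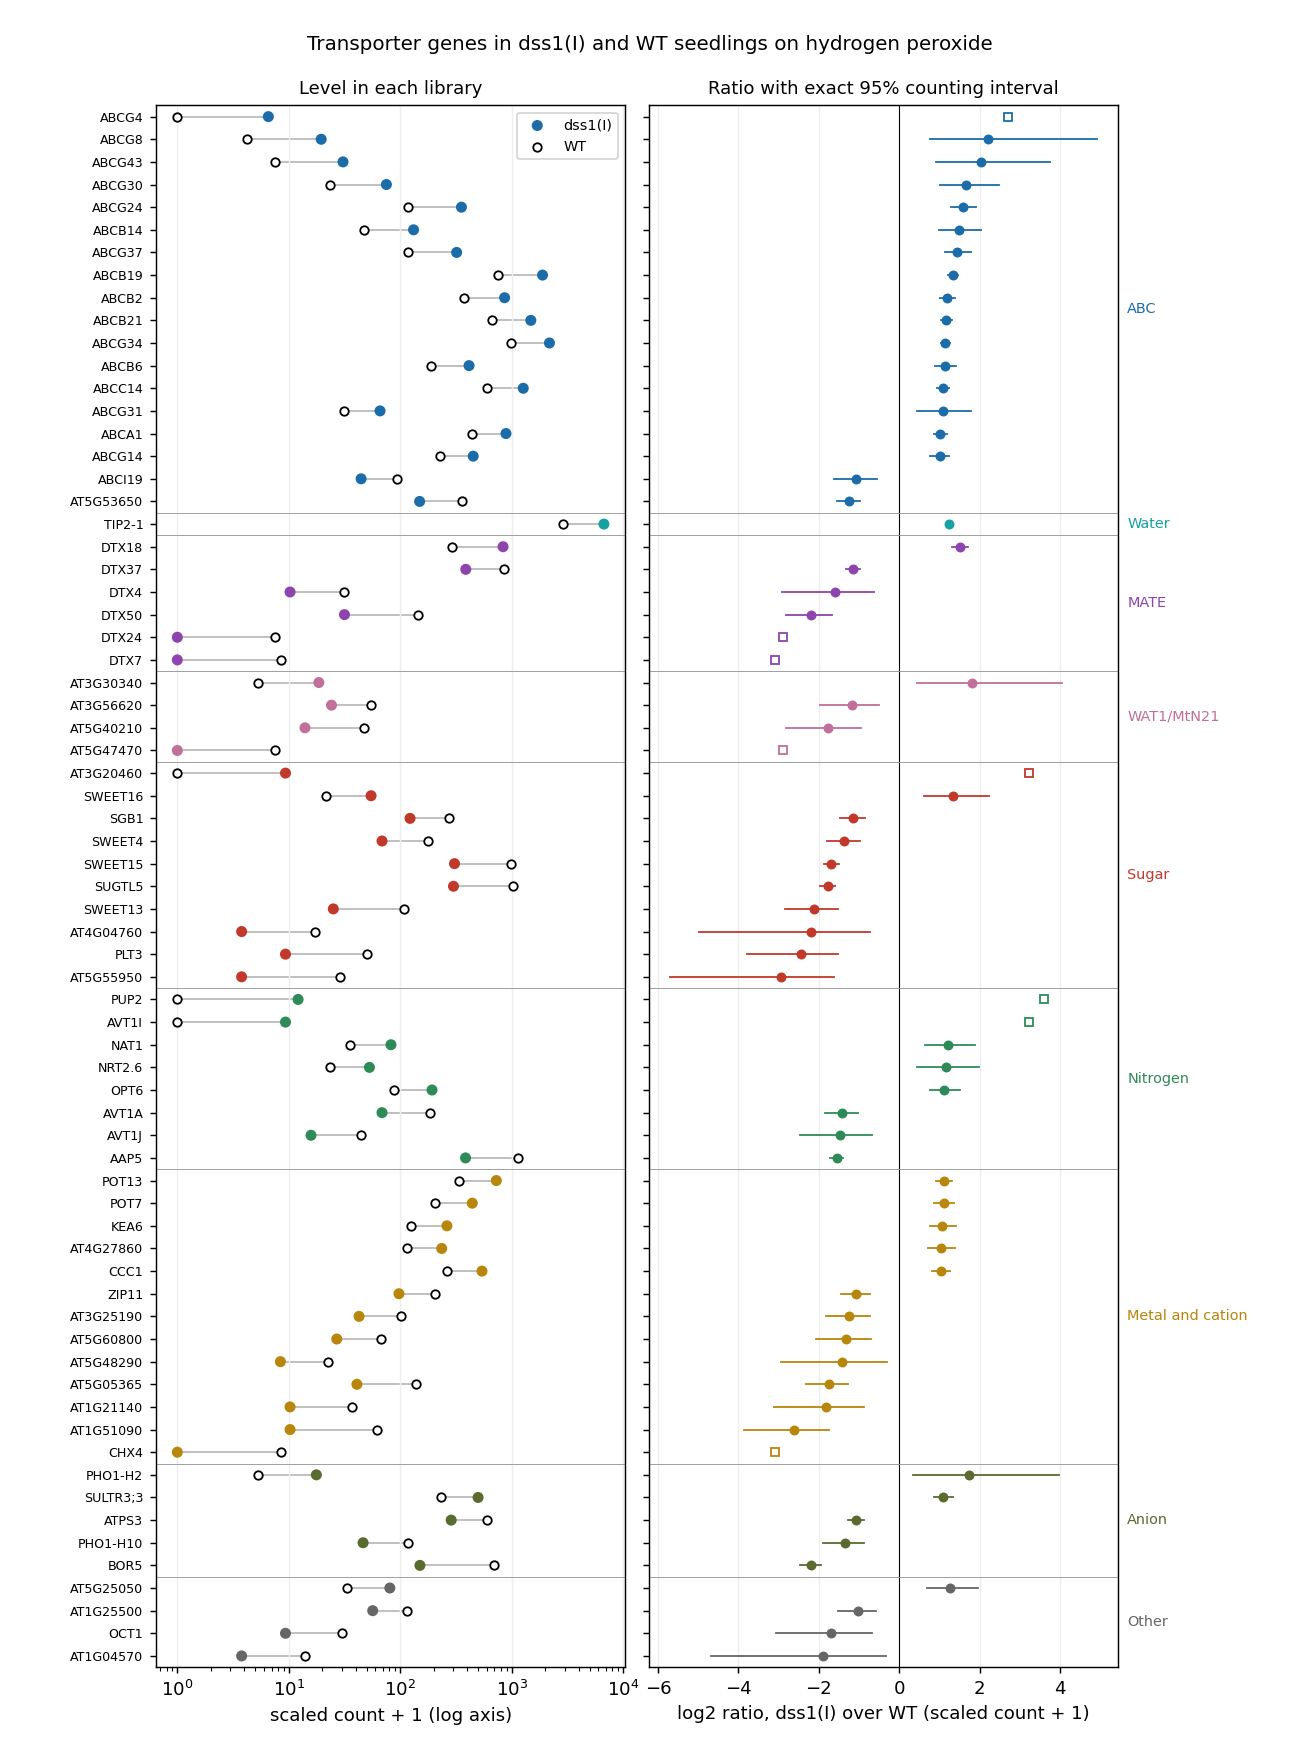
Scaled counts plus 1 on a log axis (left; filled for *dss1(I)*, open for WT) and log2 ratio of *dss1(I)* over WT (right) for the 69 transporters by group, 1 library per genotype. Bars are exact 95% intervals of counting error, and open squares mark genes with 0 reads in 1 library, which have no bar. Of the 18 ABC genes, 15 of the 17 that pass the minimum lie right of 0, where 87.1% of other genes of their lengths also lie. Of the 9 sugar carriers that pass, 8 lie left of 0, while 37.1% of other genes of their lengths lie right of it. With *STP1* and *STP14*, not drawn, 8 of 11 sugar carriers were lower.

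The ABC class was the largest group, with 18 genes, and 15 of the 17 that passed were higher in *dss1(I)*. Their median log2 ratio was 1.16 and their summed reads were 11467 in *dss1(I)* against 4643 in WT. ABC genes had a median length of 4253 bp, and 87.1% of other genes of the same length groups were higher, against 88.2% of the ABC genes. The ABC share thus stood 1.17 percentage points above that of other genes of its length. All 12 transporters over 4000 bp were ABC genes and all 12 were higher, as were 99.7% of other genes of that length.

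The B family, full-size pumps best known for auxin transport, had 5 genes in the table of 28 annotated with that name. *ABCB19*, an exporter of auxin along the stem, had 2040 reads in *dss1(I)*, against 694 in WT, or 42.7 FPKM in *dss1(I)* against 17 FPKM in WT. *ABCB21*, also an auxin carrier, had 1602 reads in *dss1(I)* against 614 in WT, and *ABCB2* had 931 in *dss1(I)* against 348 in WT. All of these were 2.24- to 2.53-fold higher in *dss1(I)*. *ABCB6* had 446 reads in *dss1(I)* against 173 in WT, a log2 ratio of 1.14. *ABCB14*, known as a malate importer of guard cells, had 141 reads in *dss1(I)* against 43 in WT, with the largest log2 ratio of the family, 1.48 (interval 0.99 to 2.02). The 5 genes had a median log2 ratio of 1.20, and 99.7% of other genes in their length group were also higher.

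The G family, with half-size and full-size (PDR) pumps, had 9 genes in the table of 43 annotated with that name. The 8 that passed the minimum were all higher in *dss1(I)*, with a median log2 ratio of 1.51, beside 89.9% of other genes of their lengths. *ABCG34*, an exporter of the phytoalexin camalexin, was the ABC gene of most reads, with 2353 in *dss1(I)* against 912 in WT, or 45.3 FPKM in *dss1(I)* against 20.6 FPKM in WT. *ABCG37*, which exports coumarins and an auxin precursor from roots, had 345 reads in *dss1(I)* against 108 in WT, a log2 ratio of 1.45 (interval 1.14 to 1.78). *ABCG24* had 381 reads in *dss1(I)* against 109 in WT, a ratio of 1.58 on the log2 scale (interval 1.28 to 1.91). These 3 genes had intervals wholly above 1.

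Carriers of hormones were among the G family genes. *ABCG14*, which loads cytokinin into the xylem, had 486 reads in *dss1(I)* against 208 in WT, a log2 ratio of 1.00 (interval 0.77 to 1.25). *ABCG30* and *ABCG31*, abscisic acid carriers of the seed, had low levels, 1.36 and 1.33 FPKM in *dss1(I)* and 0.418 and 0.623 FPKM in WT. Their log2 ratios were 1.67 (interval 1.00 to 2.48) for *ABCG30* and 1.08 (interval 0.45 to 1.79) for *ABCG31*. *ABCG43*, with 32 reads in *dss1(I)* against 6 in WT, lies 9157 bp from *ABCG30* on chromosome 4 and shares 4.69% of its stretches of 100 bases with a neighbouring gene. *ABCG8*, a half-size pump, had 20 reads in *dss1(I)* against 3 in WT, with a wide interval of 0.77 to 4.91 on the log2 scale. *ABCG4* had 6 reads in *dss1(I)* against 0 in WT and was under the minimum.

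The remaining ABC genes went both ways. *ABCC14*, of the multidrug resistance-associated family (4973 bp), had 1369 reads in *dss1(I)* against 556 in WT. *ABCA1*, the longest transporter at 6532 bp, had 958 in *dss1(I)* against 405 in WT. Both had log2 ratios near 1, of 1.08 and 1.02. The 2 ABC genes with lower values were the shortest of the class. *ABCI19*, a soluble ABC protein (1760 bp), had 47 reads in *dss1(I)* against 86 in WT, a log2 ratio of -1.07 (interval -1.63 to -0.56). *AT5G53650*, described as an A family protein but only 643 bp long, had 160 reads in *dss1(I)* against 329 in WT, a ratio of -1.25 (interval -1.54 to -0.98).

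**Figure D2:**
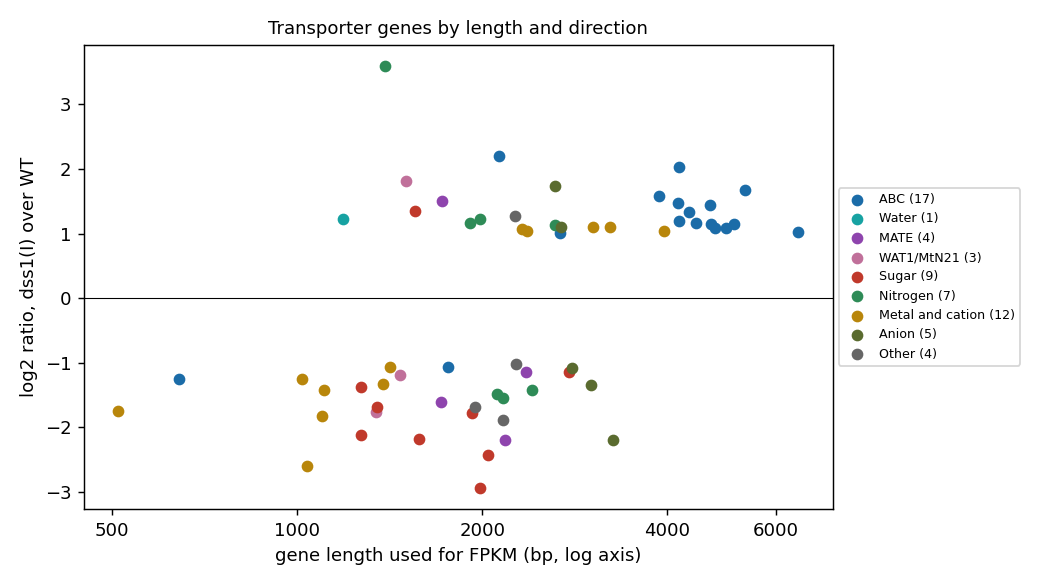
Log2 ratio of *dss1(I)* over WT against gene length in bp for the 62 transporters that pass the minimum, coloured by group. Transporters with higher values had a median length of 3022 bp and those with lower values 1760 bp, and all 12 over 4000 bp were ABC genes above 0.

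The carriers of sugars had the lowest median, -1.78, with 8 of 9 lower in *dss1(I)*. Other genes of their lengths were higher in 37.1% of cases, against 11.1% (1 of 9) of the sugar carriers. Their summed reads were 965 in *dss1(I)* against 2494 in WT, a direction that depends on the selection by words, since with *STP1* and *STP14* the sums were 6892 in *dss1(I)* against 4277 in WT. *SWEET15*, known from senescing leaves and seed coats, had 330 reads in *dss1(I)* against 916 in WT, or 22.1 FPKM in *dss1(I)* against 72.2 FPKM in WT, a log2 ratio of -1.69 (interval -1.88 to -1.51). *SWEET13*, a sucrose exporter of the leaf phloem, had 26 reads in *dss1(I)* against 100 in WT, a ratio of -2.12 (interval -2.84 to -1.53). *SWEET4* had 73 reads in *dss1(I)* against 164 in WT, a log2 ratio of -1.37. *SWEET16*, a carrier of the vacuolar membrane, had 58 reads in *dss1(I)* against 19 in WT, a log2 ratio of 1.35 (interval 0.62 to 2.22). The 4 *SWEET* genes were between 1269 and 1554 bp long, where 20.2% of other genes in their length groups were higher, against 1 of these 4.

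The other sugar carriers found by the words were lower as well, but for 1 gene of few reads. Outside that selection, *STP1* and *STP14* were higher. *SUGTL5* (ERD6-like 12), of a family related to glucose carriers, had 323 reads in *dss1(I)* against 957 in WT, or 15.2 FPKM in *dss1(I)* against 53 FPKM in WT. Its log2 ratio of -1.78 had an interval of -1.97 to -1.60. *SGB1*, a probable plastidic glucose carrier by description only, had 131 reads in *dss1(I)* against 251 in WT. Of other genes of its length group (2764 bp), 74.4% were higher. *PLT3*, a polyol carrier by its name, had 9 reads in *dss1(I)* against 46 in WT. *AT5G55950*, a nucleotide-sugar carrier by description, had 3 in *dss1(I)* against 26 in WT, a ratio of -2.94 on the log2 scale (interval -5.70 to -1.63). The ERD6-like genes *AT4G04760* (3 reads in *dss1(I)*, 15 in WT) and *AT3G20460* (9 in *dss1(I)*, 0 in WT) had too few reads for a narrow interval.

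*TIP2-1*, an aquaporin of the vacuolar membrane that also passes ammonia, was the only water channel and the transporter of most reads. It had 7259 reads in *dss1(I)* against 2660 in WT, or 553 FPKM in *dss1(I)* against 238 FPKM in WT. The log2 ratio was 1.23 (interval 1.17 to 1.30), a 2.35-fold higher scaled count. At 1189 bp it was higher while 14.6% of other genes in its length group were. The summed reads of all transporters were 25847 in *dss1(I)* against 15783 in WT, or 0.234% of the *dss1(I)* total and 0.168% of the WT total. Without *TIP2-1* they were 18588 in *dss1(I)* against 13123 in WT.

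Carriers of nitrogen compounds went both ways, with 4 of 7 higher (57.1%), near the 54.2% of other genes of their lengths. The 3 lower ones were amino acid carriers. *AAP5*, which imports amino acids at the plasma membrane, had 415 reads in *dss1(I)* against 1047 in WT, or 17.4 FPKM in *dss1(I)* against 51.5 FPKM in WT, with a log2 ratio of -1.55 (interval -1.72 to -1.39). The vacuolar type genes *AVT1A* (73 reads in *dss1(I)*, 170 in WT) and *AVT1J* (16 in *dss1(I)*, 40 in WT) had ratios of -1.42 and -1.48. *AVT1I* had 9 reads in *dss1(I)* against 0 in WT and was under the minimum. The 4 higher ones were carriers of nitrate, peptides and nucleobases. *OPT6*, an oligopeptide carrier that also takes glutathione, had 207 reads in *dss1(I)* against 81 in WT, a log2 ratio of 1.13 (interval 0.76 to 1.53). *NAT1*, of the nucleobase-ascorbate family, had 88 reads in *dss1(I)* against 32 in WT, and *NRT2.6*, a high-affinity nitrate carrier by name, had 56 in *dss1(I)* against 21 in WT. *PUP2*, a purine permease tested for cytokinin transport in yeast, had 12 reads in *dss1(I)* against 0 in WT, at least 3.44-fold higher against a floor of 3 reads in the WT library.

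Of 12 metal and cation genes that passed the minimum, 5 were higher (41.7%) and 7 lower, near the 45.4% of other genes of their lengths that were higher. The 4 that passed among the potassium carriers and cation antiporters were all higher in *dss1(I)*, with a median log2 ratio of 1.09, beside 90.2% of other genes of their lengths. *POT13* had 785 reads in *dss1(I)* against 313 in WT, *POT7* had 477 in *dss1(I)* against 190 in WT, and both are potassium carriers of the KUP/HAK type. *CCC1*, a cation-chloride cotransporter, had 583 reads in *dss1(I)* against 244 in WT, and *KEA6*, a potassium efflux antiporter, had 282 in *dss1(I)* against 115 in WT. These 4 ratios lay close together, at 1.04 to 1.11 on the log2 scale. *CHX4*, a cation/proton antiporter, had 0 reads in *dss1(I)* against 7 in WT and was under the minimum.

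Among the iron, zinc and heavy metal genes, 7 of 8 were lower and 12.5% higher, beside 22.9% of other genes of their lengths, most being short. Of 3 genes related to the vacuolar iron transporter, *AT4G27860* (2368 bp) had 253 reads in *dss1(I)* against 105 in WT. *AT3G25190* (1019 bp) had 45 in *dss1(I)* against 93 in WT, and *AT1G21140* (1099 bp) had 10 in *dss1(I)* against 33 in WT. The longest of the 3 was thus higher and the shorter ones lower. The zinc carrier *ZIP11* had 104 reads in *dss1(I)* against 189 in WT, a log2 ratio of -1.07 (interval -1.44 to -0.73). The 4 genes described as heavy metal transport/detoxification matched only by the word detoxification, and the HMA domain listed for 2 of them binds metal ions and is no pump by itself. All 4 were lower, with a median of -1.59, beside 15.1% of other genes of their lengths that were higher. *AT5G05365* had 43 reads in *dss1(I)* against 127 in WT, a ratio of -1.75, and *AT1G51090* had 10 in *dss1(I)* against 57 in WT, a ratio of -2.60 (interval -3.86 to -1.75). *AT5G60800* had 28 in *dss1(I)* against 62 in WT, and *AT5G48290* had 8 in *dss1(I)* against 20 in WT.

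Anion carriers held the lowest ratio among the transporters over 2500 bp that passed the minimum. *BOR5*, related to the borate exporters of the root, had 161 reads in *dss1(I)* against 637 in WT, or 4.47 FPKM in *dss1(I)* against 20.8 FPKM in WT, a 4.60-fold higher scaled count in WT. Its log2 ratio was -2.19 (interval -2.46 to -1.95), while 95.5% of other genes in its length group were higher. *PHO1-H10*, a relative of the phosphate exporter of the root xylem, had 49 reads in *dss1(I)* against 109 in WT, a log2 ratio of -1.35 (interval -1.89 to -0.87), in the same length group. *ATPS3*, a glycerol-3-phosphate carrier by description, had 308 reads in *dss1(I)* against 559 in WT. The sulfate carrier *SULTR3;3* had 538 reads in *dss1(I)* against 216 in WT, and *PHO1-H2* had 18 in *dss1(I)* against 4 in WT. The 5 anion carriers were higher in 40% of cases, against 82.8% of other genes of their lengths.

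Of 6 MATE genes, 4 passed the minimum and 3 of these were lower, leaving 25% higher, beside 56.9% of other genes of their lengths. *DTX18*, which exports defence amides of hydroxycinnamic acids, was the exception, with 902 reads in *dss1(I)* against 272 in WT, or 47.5 FPKM in *dss1(I)* against 16.8 FPKM in WT, a log2 ratio of 1.51 (interval 1.31 to 1.71). *DTX50*, an exporter of abscisic acid, had 33 reads in *dss1(I)* against 133 in WT, a ratio of -2.19 (interval -2.82 to -1.67). *DTX37* had 417 in *dss1(I)* against 791 in WT, and *DTX4* had 10 in *dss1(I)* against 28 in WT. Abscisic acid carriers thus lay in both directions, *ABCG30* and *ABCG31* higher and *DTX50* lower. *DTX7* and *DTX24* had 0 reads in *dss1(I)*, against 7 and 6 in WT, and were under the minimum.

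The WAT1-related genes, of a family with amino acid exporters and a vacuolar auxin carrier, had few reads. *AT3G30340* had 19 reads in *dss1(I)* against 4 in WT, *AT3G56620* had 25 in *dss1(I)* against 50 in WT, and *AT5G40210* had 14 in *dss1(I)* against 43 in WT. *AT5G47470* had 0 in *dss1(I)* against 6 in WT. Among carriers of no larger group, the folate-biopterin type *AT5G25050* had 86 reads in *dss1(I)* against 30 in WT, a log2 ratio of 1.28 (interval 0.69 to 1.95). Another of that type, *AT1G04570*, had 3 reads in *dss1(I)* against 12 in WT. *AT1G25500*, of the choline carrier type, had 60 in *dss1(I)* against 106 in WT, and *OCT1*, an organic cation and carnitine carrier, had 9 in *dss1(I)* against 27 in WT. Of the 3 WAT1-related genes that passed the minimum 1 was higher (33.3%), beside 22.1% of other genes of their lengths. Of the 4 carriers of the last kind 1 was higher (25%), beside 62.8% of other genes of their lengths.

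Some transporters, like some other genes, went against most genes of their length. Where at least 70% of other genes in a length group were higher, 7 of 30 transporters were lower, namely *BOR5*, *PHO1-H10*, *ATPS3*, *SGB1*, *AVT1A*, *DTX37* and *AT1G25500*. By rising length, 58.3%, 66.7% and 100% of transporters in those groups were higher, beside 74.4%, 95.5% and 99.7% of other genes. Where at most 30% were higher, 4 of 18 transporters were, namely *TIP2-1*, *PUP2*, *AT3G30340* and *SWEET16*. There, by rising length, 0 of 2, 0 of 2, 1 of 6 and 3 of 8 transporters were higher. Of other genes, 11.5%, 8.41%, 14.6% and 25.8% were, so these 4 transporters show no clear excess. How many transporters these shares alone would give was not computed. These limits were chosen after the values had been seen. Between 1703 and 2177 bp, 4 of 14 transporters were higher, beside 51.1% of the others, and from 2910 to 4139 bp 4 of 6 were, beside 95.5%. Of the 36 transporters with at least 100 reads in 1 library, 20 were higher and 16 lower, and of the 26 with fewer that passed the minimum, 11 were higher and 15 lower. The share of other genes with as many reads was not computed, and length was not taken into account here.

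**Figure D3:**
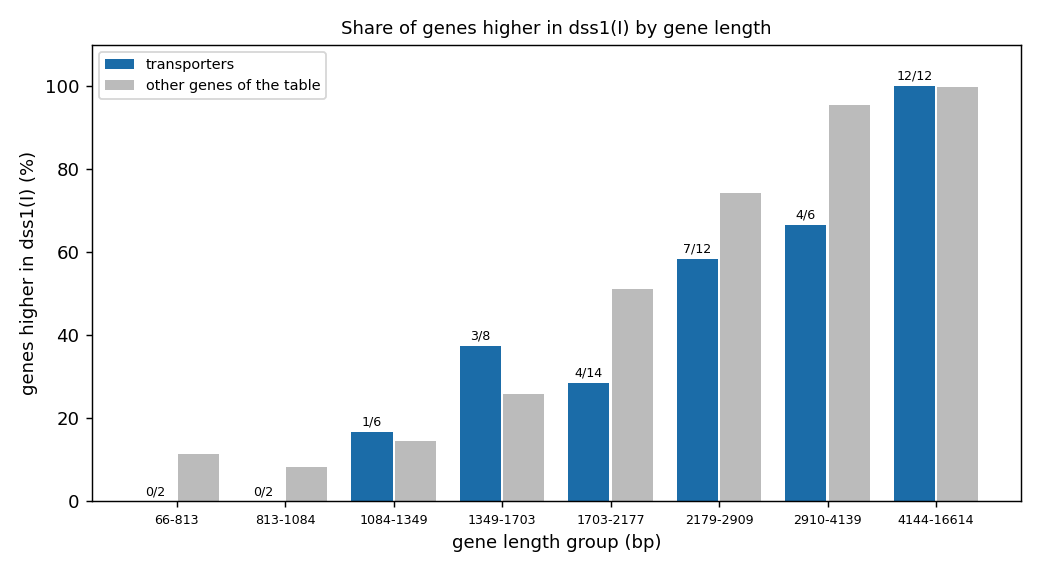
Share of genes higher in *dss1(I)* (percent) in 8 groups of equal size by gene length, for transporters (left bars, with their number) and all other genes of the table that pass the minimum (right bars). The share of other genes climbs to 99.7% in the longest group. Transporters stand below it from 1703 to 4139 bp, with 14, 12 and 6 genes per group. The shorter groups, of 2 to 8 transporters, go both ways.

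The words used to select the transporters missed 11 genes of the same families, of which 7 were higher and 4 lower. A gene with a family name only as a synonym (*BRX*, not an aquaporin) and a mitochondrial carrier (*MPT2*) were not counted among them. Over all genes that passed the minimum, 48.5% were higher. The 7 higher genes were 2186 to 5679 bp long, and in their length groups 74.4% to 99.7% of other genes were higher. The 4 lower ones were 1063 to 2170 bp long, in length groups where 8.41% to 51.1% of other genes were higher. A single share of other genes of their lengths was not computed for these 11 genes. The largest was *STP1*, the main monosaccharide importer of the root surface, with 5526 reads in *dss1(I)* against 1636 in WT, or 202 FPKM in *dss1(I)* against 70.1 FPKM in WT. Its log2 ratio of 1.54 (interval 1.46 to 1.62) was opposite to most sugar carriers above, as was that of *STP14*, 1.23. With these genes, 3 of the 11 sugar carriers that passed the minimum were higher (27.3%), beside 43.9% of other genes of their lengths. The boric acid channel *NIP5-1* had 66 reads in *dss1(I)* against 116 in WT, a log2 ratio of -1.02, lower like *BOR5*. Of the NPF carriers of nitrate and peptides, *NPF1.2* (748 reads in *dss1(I)*, 282 in WT) and *NPF5.2* (192 in *dss1(I)*, 82 in WT) were higher and *NPF3.1* (654 in *dss1(I)*, 1195 in WT) was lower. The ABC proteins *ATMRP11* and *ATMRP13* had ratios of 1.27 and 1.17, and the short *ABCI17* one of -1.20. The oligopeptide carrier *OPT4* had a ratio of 1.24 and the phosphate carrier *PHT1-4* one of -1.04.

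A list of other transport words (exchanger, carrier, translocator, facilitator, channel, efflux and the like) found 14 more genes, 8 higher and 6 lower, with a median log2 ratio of 1.08. The higher share was 57.1%, near the 60.8% of other genes of their lengths. *GPT2*, which brings glucose-6-phosphate into plastids, had the lowest ratio, with 157 reads in *dss1(I)* against 1058 in WT, a log2 ratio of -2.96 (interval -3.22 to -2.73). Vacuolar and membrane exchangers of calcium were lower, *CAX3* at -1.17 and *CCX2* at -1.78, and so were the mitochondrial carriers *AAC2* at -1.21 and *MPT2* at -1.35. All 6 channels of the list, of 2661 to 3149 bp, were higher, as were 84.9% of other genes of their lengths. The channels included *CLC-E* at 1.42, *CNGC15* at 2.02 and *AT3G54510* at 2.08. 2 of the 14, *CNX7* and *S-ACP-DES6*, matched the word carrier without being transport proteins.

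Of the 69 transporters, 19 overlap another annotated gene, 17 of them one on the other strand, and the strand setting of the counting is not given in the sources used here. For these genes, *TIP2-1*, *DTX18*, *BOR5*, *ABCB21*, *ABCB6* and *ABCG14* among them, reads of the overlapping partner cannot be told apart.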

How the data were processed

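Paired-end RNA-seq libraries of *dss1(I)* and WT seedlings were compared, 1 per genotype, and *dss1(V)* was not analysed. Read counts per gene, deposited by the authors, came from fastp filtering, HISAT2 alignment to TAIR10 and featureCounts. The scaled counts, a signal deposited by the authors, were brought to equal library size in edgeR. FPKM, as deposited, divides each count by gene length and library total. The gene length and annotation columns, another kind of deposited value, were used as given. The authors' log2 fold changes, p-values and adjusted p-values were not used. The table holds only genes the authors called. All columns of per-sample values were used (0 left out).

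Log2 ratios of *dss1(I)* over WT were computed from scaled counts with a pseudocount of 1. Lists were counted over genes whose scaled count reached 10 in 1 library or both, and a log2 ratio of at least 1 in size. No test was made, as neither genotype had replicates. Exact Clopper-Pearson 95% intervals, converted from the share of the 2 counts, cover counting error only, as each genotype had 1 library. They take reads as independent, and PCR reads lacking molecular identifiers are not, so the intervals may be too narrow. Folds against 0 reads used a floor of 3 reads per library. Each list was set beside other table genes of the same length group (8 groups). Members were put in substrate groups by words, and 5 were moved by hand, 4 heavy metal genes out of the MATE group and *OCT1* out of the metal group. The genes named by rule were, per group, up to 3 with the largest rise and fall among those with at least 10 scaled counts in both libraries, the one of highest FPKM, and any at 0 reads in 1 library with at least 10 in the other. The other members were also given, so that all 69 are described. Members, lists and motifs were chosen with earlier results of these data known. Coordinates and exons came from RefSeq TAIR10.1, where all 69 genes had the same start and end as in the table. Scripts ran in Python 3.11.15 with scipy 1.17.1 and were tested on simulated data.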

Additional observations from a re-analysis of the deposited data

How the results depend on the processing

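No paired analysis was possible because *dss1(I)* and WT had 1 library each, and for the same reason no replicate could be left out. Relative to 31 higher and 31 lower transporters, a threshold of 2 on the log2 ratio gave 3 higher and 7 lower, the members with an empty domain column alone gave 6 higher and 12 lower, and leaving out the ABC class gave 16 higher. Scaling by the median ratio over the table moved log2 ratios up by 1.02, and 8 transporters were then lower by the threshold. The median of -0.01 became 0.0069 with a pseudocount of 5, 1.01 under that scaling, 1.04 with a minimum of 50, 1.03 with narrow membership (without carriers inside the cell) and 1.03 without the heavy metal genes. It became -1.03 with no minimum, -1.16 with an empty domain column and -1.25 without the ABC class. The difference from genes of similar length, -9.87 points, was between -14.0 without the ABC class and -5.81 with an empty domain column, and negative under every alternative run. These runs used the same 2 libraries and largely the same genes, so they are no independent checks. The median of carriers of no larger group became 0.13 with a minimum of 50. Of the 34 genes named by rule, all kept their log2 ratio within the interval with pseudocounts of 0.1 and 5 and with library totals, and 33 left it under the median ratio scaling, with none reversed. The settings with an empty domain column, without heavy metal genes and without the ABC class were added after seeing the data. Depth limits the genes of few reads, 7 of which were under the minimum in both libraries.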
